A study of Mus musculus with 12 samples.

Results

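A set of 48 mouse genes for ribosome biogenesis and RNA polymerase I was followed in the small intestine of Apc Eif3h, Apc and wild-type (WT) mice, with 4 libraries per genotype. The genes were taken by symbol from a list of nucleolar rRNA processing, small nucleolar ribonucleoprotein (snoRNP) and RNA polymerase I genes. No cut on their values was applied, but the list was chosen with earlier results of these data known. All 48 were found among the 55421 gene identifiers of the count table, and all 48 were among the 17394 genes with enough counts to be tested. By role, 5 belong to box C/D snoRNPs, 4 to box H/ACA snoRNPs, 13 to small subunit processing, 13 to large subunit assembly, 4 are DEAD-box helicases, 2 are nucleolar scaffold proteins and 7 serve RNA polymerase I. They lie on 18 chromosomes, with at most 6 on one of them (chromosome 1).

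Apc Eif3h mice carried VilCreER with both Apc and Eif3h floxed (Apc fl/fl Eif3h fl/fl). Apc mice carried VilCreER and Apc fl/fl with Eif3h left intact. WT mice are labelled wild type, with no Cre named. VilCreER is a Cre recombinase that tamoxifen activates. The villin promoter drives it in the gut epithelium and not in the muscle, stroma or immune cells that whole tissue also contains. Recombination was induced with 2 intraperitoneal injections of 80 mg/kg tamoxifen, 24 hours apart, a protocol text that all 12 samples share. The time point on the labels is day 4 for Apc Eif3h and Apc mice and day 7 for WT mice, whereas the shared protocol text gives a harvest after 7 days for all of them. Genotype and labelled day therefore cannot be told apart in any comparison with WT. All 4 Apc Eif3h libraries are labelled male, while Apc replicate 1 and WT replicate 4 are labelled female. The labels do not give ages, and they leave unstated whether the libraries of a group came from separate mice. The tests thus rest on differences between these 12 libraries, part of which may be technical.

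A ribosome begins in the nucleolus, where RNA polymerase I copies the rRNA genes into a long precursor. SnoRNPs then guide methylation and pseudouridylation of that precursor, and large assemblies of processing factors fold and cut it into the RNAs of the small and the large subunit while ribosomal proteins are added. Intestinal crypts renew the epithelium continuously, and the genes of this pathway are textbook targets of MYC, which Wnt signalling raises when the Apc tumour suppressor is lost. Eif3h encodes a subunit of the translation initiation factor eIF3.

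Library totals were 14221414 to 21298301 counts for Apc Eif3h, 10483112 to 18621953 for Apc and 13915889 to 14589963 for WT. Levels below are CPM (counts scaled to a common library size) after TMM scaling, and "called" means an adjusted p below 0.05 in edgeR's quasi-likelihood test with Benjamini-Hochberg adjustment over all 17394 genes. Eif3h was at 28.3, 43.1, 54.6 and 25.9 CPM in Apc Eif3h libraries 1 to 4, against 158 to 175 CPM in Apc and 126 to 142 CPM in WT libraries, a log2 fold change of -2.13 (SE 0.19, edgeR adjusted p = 0.000405) for Apc Eif3h against Apc. Counts over the whole Apc gene cannot show the loss of a floxed exon. Its log2 fold change was 0.28 for Apc against WT (edgeR adjusted p = 0.0177), a call lost without WT replicate 1 (edgeR adjusted p = 0.0526) and without Apc replicate 4 (0.0577). Epithelial markers were present in every library. Enterocyte markers summed to 17000 to 28200 CPM in Apc Eif3h, 15100 to 24000 CPM in Apc and 33100 to 45700 CPM in WT libraries, and stem and crypt cell markers to 1630 to 2010 CPM in Apc Eif3h, 2250 to 2830 CPM in Apc and 502 to 897 CPM in WT libraries. Of the 10 enterocyte markers 7 were called lower in Apc than in WT, where 24.1% of all tested genes were. All 6 stem and crypt markers were called higher, against 27.7% of tested genes. In bulk tissue a change in the number of cells of a type and a change of RNA per cell cannot be told apart, and the part of tissue makeup in the results below was not tested.

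Markers of other cell types also moved. In Apc against WT, where 24.1% of all tested genes were called lower, the call was lower for 6 of 6 T and cytotoxic cell markers (median log2 fold change -1.7), 4 of 4 tested macrophage and neutrophil markers (-0.82), 4 of 4 tuft (-1.07), 4 of 4 enteroendocrine (-0.8) and 4 of 5 goblet cell markers (-1.09). It was also lower for 3 of 5 smooth muscle markers (median -0.36), 1 of 5 for fibroblasts (-0.3), 2 of 4 for endothelium (-0.57), 2 of 4 for neurons and glia (-0.61) and 1 of 6 tested for B and plasma cells (-1.29). Of 4 Paneth cell markers 1 was called higher (median 0.88), and the 1 tested pancreatic acinar marker was not called (0.25). In Apc Eif3h against Apc the stem and crypt markers Lgr5 (-1.19, edgeR adjusted p = 0.00974) and Smoc2 (-0.63, edgeR adjusted p = 0.00171) were called lower, with a median of -0.42 for their list. The other 4 of that list were not called in this comparison. Of them Olfm4 (-0.61) and Sox9 (-0.24) lay below 0, and Ascl2 (0.25) and Axin2 (0.17) lay above it. Of the 62 tested markers of other cell types edgeR called 0 in Apc Eif3h against Apc, with 13 at an unadjusted p below 0.05. Over all tested genes edgeR called 4.27% higher and 2.78% lower. DESeq2 called 2 of 57 of these markers lower, where it called 694 of 17085 genes lower. The lists of these markers had medians of 0.22 for enterocytes, -1.3 for Paneth cells and 3.22 for B and plasma cells, and -0.57 to 0.19 for the other lists. B and plasma cell markers summed to 1520 CPM in Apc Eif3h replicate 2 against 309 to 449 CPM in the other 3 of its group, to 942 CPM in Apc replicate 3 against 357 to 497 CPM, and to 2760 CPM in WT replicate 1 against 816 to 921 CPM.

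Counting was limited for some members. A stretch of at least 300 bases with at least 95% identity to another gene was found for 9 members apart from overlaps in place (Fbl, Nop56, Pes1, Wdr12, Mrto4, Ddx18, Ddx21, Npm1 and Taf1d), each with at least 1 pseudogene. Exons of 17 members overlapped a gene on the other strand, by at most 598 bases (Noc2l, with Samd11) and 361 bases for Bysl (with Ccnd3). Exons of 5 members overlapped genes on the same strand, which are mostly small RNA genes, by 1028 bases in Taf1d, 328 in Nop56, 272 in Ncl, 235 in Gnl3 and 84 in Nop58. How reads with several matches, overlaps and strand were handled is not given in the sources used here, so levels of these genes are uncertain to that extent.

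The whole set was higher in both mutant groups than in WT. The 48 genes together held 0.554% ± 0.126 of counts in Apc Eif3h, 0.43% ± 0.0664 in Apc and 0.142% ± 0.0203 in WT libraries (mean ± SD, n = 4 each). Without the 2 most abundant, Ncl and Npm1, the share was 0.254% to 0.438% in Apc Eif3h, 0.247% to 0.338% in Apc and 0.0864% to 0.116% in WT libraries. The Apc Eif3h and the Apc shares overlapped, and every WT library lay below all 8 others.

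**Figure D1:**
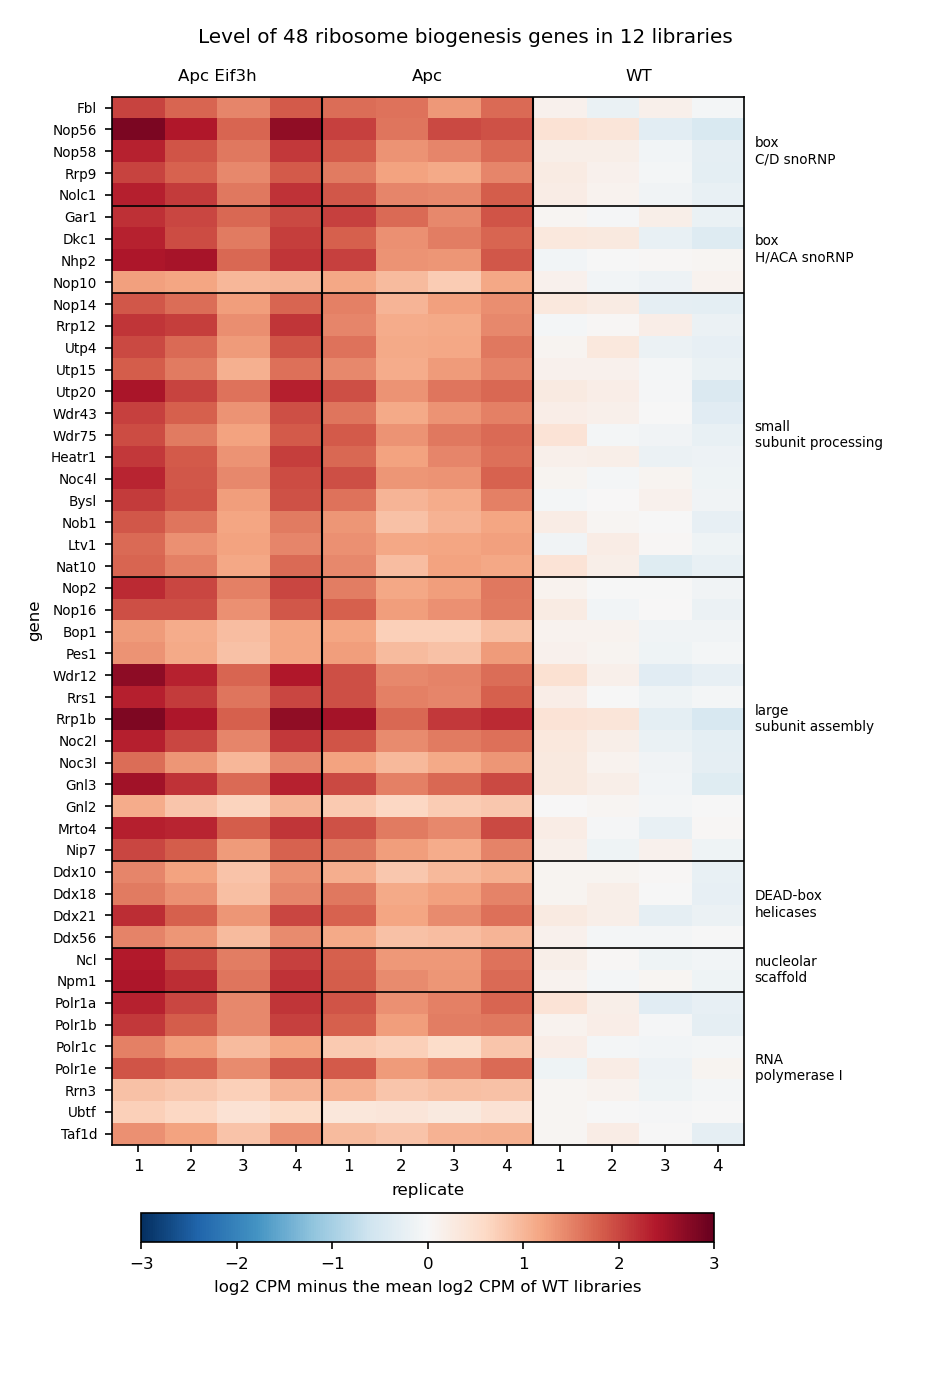
Each row is 1 of the 48 genes, ordered by role, and each column 1 library of Apc Eif3h (left), Apc (middle) or WT (right). Colour gives log2 CPM minus the mean log2 CPM of the 4 WT libraries. Apc Eif3h replicate 3 is the palest column of its group for all 48 genes.

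For Apc against WT, 48 of 48 members were called higher and 0 lower, where 27.7% of all tested genes were called higher and 24.1% lower. More than 2-fold was reached by 40 of the 48, against 9.35% of tested genes. In all 48 the lowest Apc library lay above the highest WT library, a separation seen in 26.7% of tested genes. The median log2 fold change was 1.45 (2.72-fold), with quartiles of 1.16 and 1.6 and a range of 0.36 to 2.11, beside a median of -0.01 over all tested genes. Apc Eif3h against WT, which shares the WT libraries with that comparison, also called 48 of 48 members higher, where the background was 29.8%. Its median was 1.79 (3.45-fold), with a range of 0.59 (Ubtf) to 2.41 (Rrp1b) and 45 members past 2-fold, against 11.8% of tested genes. The 3 members under 2-fold were Ubtf (1.5-fold), Rrn3 (1.81-fold) and Gnl2 (1.89-fold).

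The box C/D snoRNPs carry the guide RNAs for ribose methylation of rRNA. All 5 members were called higher in Apc than in WT, with a median log2 fold change of 1.59. Nop56, a core protein of these particles, was at 212, 158, 100 and 188 CPM in Apc Eif3h libraries 1 to 4, 125, 91.2, 119 and 113 CPM in Apc libraries and 40.4, 38.5, 23.9 and 21.7 CPM in WT libraries. Apc Eif3h replicate 3 lay inside the Apc range and the other 3 above it, while no WT library came near either group. Its log2 fold change was 1.85 for Apc against WT (SE 0.25, edgeR adjusted p = 9.23e-05). Nop58, its partner in the same core, averaged 175 ± 37.5 CPM in Apc Eif3h, 133 ± 20.6 CPM in Apc and 44.1 ± 6.44 CPM in WT libraries (SD, n = 4). Fbl, the methyltransferase itself, averaged 64.9 ± 10.3 CPM in Apc Eif3h, 56.3 ± 6.91 CPM in Apc and 18.9 ± 2.13 CPM in WT libraries and had the smallest adjusted p of the role in Apc against WT (log2 fold change 1.58, SE 0.13, edgeR adjusted p = 7.8e-06). Rrp9, a protein of the U3 snoRNP that acts in early cleavages, and Nolc1, a snoRNP chaperone, had log2 fold changes of 1.34 and 1.65 in that comparison.

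The box H/ACA snoRNPs convert uridines of rRNA to pseudouridine. Gar1, Dkc1 and Nhp2 had log2 fold changes of 1.77, 1.58 and 1.69 for Apc against WT, and Nop10, the smallest protein of the particle, 1.02. Dkc1, the pseudouridine synthase, is X-linked and was at 107, 83.3, 63.9 and 91 CPM in Apc Eif3h, 74.8, 55.6, 62.2 and 72 CPM in Apc and 26.7, 26.4, 18.6 and 16.5 CPM in WT libraries. The female libraries, Apc replicate 1 and WT replicate 4, were the highest of the Apc and the lowest of the WT group for this gene. That order was not particular to Dkc1. Among all 48 members Apc replicate 1 was the highest of its group for 37, and WT replicate 4 the lowest for 28. Nop10 was at 69.7 to 81.7 CPM in Apc Eif3h, 59.3 to 78.5 CPM in Apc and 31.5 to 38.2 CPM in WT libraries. It therefore differed by a smaller ratio from WT than its 3 partners, although the difference between the members' fold changes was not tested.

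The 13 small subunit processing members spanned 1.11 (Nob1) to 1.64 (Utp20) in log2 fold change for Apc against WT, with a median of 1.34. Utp4, Utp15, Wdr43, Wdr75 and Heatr1 belong to the subcomplex that also supports rRNA transcription, and they lay between 1.32 and 1.6. Heatr1 averaged 71.7 ± 15.8 CPM in Apc Eif3h, 56.1 ± 8.41 CPM in Apc and 19.6 ± 2.56 CPM in WT libraries (SD, n = 4). Nop14 and Noc4l, which bind each other in the early small subunit particle, had log2 fold changes of 1.26 and 1.62, and Rrp12 had 1.29. Utp20, a long protein of the same particle, was at 85.4, 64, 48 and 78.7 CPM in Apc Eif3h, 59.6, 39.7, 47.5 and 52 CPM in Apc and 19, 18, 15.2 and 11.5 CPM in WT libraries. Its Apc Eif3h replicate 3 lay among the Apc libraries and the other 3 above them. The late-acting factors had log2 fold changes of 1.34 for Bysl, 1.23 for Ltv1 and 1.11 for Nob1, the endonuclease that finishes the end of the small subunit rRNA. Nat10, an RNA acetyltransferase, had 1.16 (SE 0.18, edgeR adjusted p = 0.000232). The smallest adjusted p of the role belonged to Ltv1 (SE 0.11, edgeR adjusted p = 1.02e-05), which was at 62.7 to 87.3 CPM in Apc Eif3h, 60.8 to 69.3 CPM in Apc and 24.8 to 31.3 CPM in WT libraries.

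Large subunit assembly held the widest spread of the set. Rrp1b, a nucleolar protein related to the yeast large subunit factor Rrp1, had the highest log2 fold change of all 48 for Apc against WT at 2.11 (SE 0.26, edgeR adjusted p = 5.28e-05), and Gnl2, a nucleolar GTPase, the lowest of the role at 0.75 (SE 0.1, edgeR adjusted p = 6.65e-05). Rrp1b was at 71.1, 54.8, 35.3 and 63.8 CPM in Apc Eif3h, 57.3, 33.7, 44.1 and 48 CPM in Apc and 13.6, 13.1, 8.23 and 7.25 CPM in WT libraries. The mutant groups overlapped over most of their range, and all 8 mutant libraries exceeded 2 times the highest WT library. Gnl2 was at 46.2 to 63.2 CPM in Apc Eif3h, 45.2 to 51.3 CPM in Apc and 28 to 30.6 CPM in WT libraries. Gnl3, also called nucleostemin and a close relative of Gnl2, had 1.79 in the same comparison.

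The PeBoW complex of Pes1, Bop1 and Wdr12 acts in the cutting of the large subunit precursor. Its 3 members had log2 fold changes of 1.09, 0.89 and 1.6 for Apc against WT. Mrto4, which holds the place of a stalk protein on the immature large subunit, had 1.74 with the smallest adjusted p of the role (edgeR adjusted p = 1.02e-05). Wdr12 was at 67.8, 51.9, 34.9 and 55.3 CPM in Apc Eif3h, 40, 28.3, 29.2 and 33.2 CPM in Apc and 14.3, 11.6, 8.23 and 8.82 CPM in WT libraries. Pes1 was at 96.1, 83.3, 69.5 and 85.9 CPM in Apc Eif3h, 89.9, 72.4, 69.9 and 91.5 CPM in Apc and 41.2, 39.7, 34.4 and 36.2 CPM in WT libraries. The mutant groups overlapped in nearly their whole range for Pes1, and through 1 Apc Eif3h library for Wdr12. Nop2, Nop16 and Nip7, further factors of the immature large subunit, had 1.39, 1.5 and 1.36. Rrs1, which helps to place the small rRNA of the large subunit, had 1.68, and Noc2l and Noc3l had 1.62 and 1.15.

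Nucleolin (Ncl) and nucleophosmin (Npm1) are abundant proteins of the nucleolus. Per kilobase of exon, Npm1 led the set in all 3 groups, at 268 CPM per kilobase in Apc Eif3h, 182 in Apc and 61.3 in WT libraries. Wdr12 was last in all 3, at 4.39 in Apc Eif3h, 2.73 in Apc and 0.899 in WT libraries. That length joins all annotated exons of a gene and is longest for Wdr12 (11955 bases). By mean CPM alone Polr1e was below Wdr12 in Apc Eif3h (19.9 and 52.5), Apc (17.8 and 32.7) and WT libraries (5.98 and 10.7). Npm1 was at 876, 755, 493 and 729 CPM in Apc Eif3h, 571, 437, 406 and 527 CPM in Apc and 176, 157, 171 and 149 CPM in WT libraries. Ncl was at 1430, 1070, 797 and 1140 CPM in Apc Eif3h, 959, 676, 680 and 853 CPM in Apc and 309, 282, 254 and 261 CPM in WT libraries. For both genes 1 Apc Eif3h library, replicate 3, lay among the Apc libraries. Their log2 fold changes for Apc against WT were 1.57 (Npm1) and 1.52 (Ncl). Among the DEAD-box helicases, enzymes that remodel RNA, Ddx21 had 1.51, Ddx18 1.36, Ddx56 0.99 and Ddx10 0.98. Ddx21, which also binds RNA polymerase I and snoRNAs, was at 246, 183, 131 and 211 CPM in Apc Eif3h, 181, 119, 140 and 167 CPM in Apc and 63.8, 59.7, 43.6 and 46.5 CPM in WT libraries. Ddx18 was at 31.6, 27.7, 20 and 29.2 CPM in Apc Eif3h, 32.1, 23.5, 24.9 and 30 CPM in Apc and 11.2, 12.1, 10.6 and 8.98 CPM in WT libraries. Both genes had overlapping mutant groups that lay wholly above WT.

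RNA polymerase I and its factors had the lowest median of the roles for Apc against WT, 0.97, with a wide span among its members. The catalytic subunit Polr1a, the second-largest subunit Polr1b and Polr1e had log2 fold changes of 1.61, 1.54 and 1.57. Polr1c, which is also a subunit of RNA polymerase III, had 0.72, the initiation factor Rrn3 0.92 and the selectivity factor subunit Taf1d 0.97. Ubtf, the architectural factor of rRNA gene chromatin, had the smallest change of all 48 at 0.36 (1.28-fold, SE 0.07, edgeR adjusted p = 0.00125). It was at 199, 189, 165 and 183 CPM in Apc Eif3h, 155, 157, 149 and 166 CPM in Apc and 127, 122, 119 and 121 CPM in WT libraries. Its spread between libraries was small, with SDs of 14.3 CPM in Apc Eif3h, 7.09 CPM in Apc and 3.42 CPM in WT, and the Apc and WT groups did not overlap. Polr1a averaged 65.2 ± 15.5 CPM in Apc Eif3h, 50.5 ± 8.07 CPM in Apc and 16.6 ± 4.05 CPM in WT libraries (SD, n = 4).

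**Figure D2:**
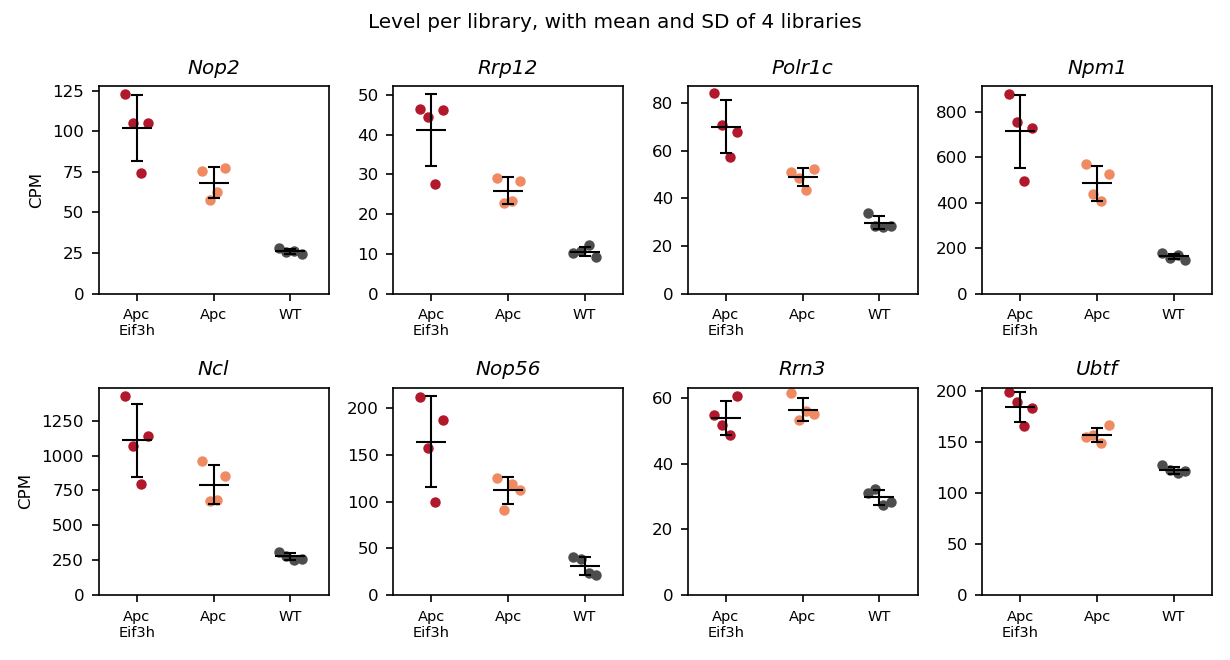
CPM of 8 genes per library, with Apc Eif3h left, Apc in the middle and WT right. Points are libraries, horizontal marks means and bars SDs of 4 libraries. Polr1c separates all 3 groups, and Rrn3 has overlapping Apc Eif3h and Apc libraries above WT.

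The Polr1c, Nop2, Rrn3 and Pes1 promoters are shown. The first pair belongs to genes called between Apc Eif3h and Apc, and the second pair to genes near 0 in that comparison. Ddx18 (-0.02) and Wdr75 (0.04) were nearer 0 there than Rrn3 (-0.06) and Pes1 (0.05), and their promoters are not shown. RefSeq (GRCm38.p6) gave a window of 250 bases before to 50 bases after the start for 42 of the 48 members, and not for Bop1, Fbl, Gnl2, Npm1, Rrp12 and Rrs1. The windows are Polr1c at chr17:46247996-46248295 (minus strand), Nop2 at chr6:125131633-125131932 (plus), Rrn3 at chr16:13780449-13780748 (plus) and Pes1 at chr11:3963725-3964024 (plus). Capitals mark the E-box CACGTG, to which MYC can bind, and CCGGAAG or its reverse complement CTTCCGG, the core letters of ETS factor sites.
Polr1c: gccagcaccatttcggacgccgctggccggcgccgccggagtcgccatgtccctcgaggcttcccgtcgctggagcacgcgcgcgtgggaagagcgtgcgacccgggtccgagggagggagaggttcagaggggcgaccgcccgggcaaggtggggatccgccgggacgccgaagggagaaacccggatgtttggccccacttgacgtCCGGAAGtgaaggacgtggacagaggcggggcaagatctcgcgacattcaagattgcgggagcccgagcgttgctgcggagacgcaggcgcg
Nop2: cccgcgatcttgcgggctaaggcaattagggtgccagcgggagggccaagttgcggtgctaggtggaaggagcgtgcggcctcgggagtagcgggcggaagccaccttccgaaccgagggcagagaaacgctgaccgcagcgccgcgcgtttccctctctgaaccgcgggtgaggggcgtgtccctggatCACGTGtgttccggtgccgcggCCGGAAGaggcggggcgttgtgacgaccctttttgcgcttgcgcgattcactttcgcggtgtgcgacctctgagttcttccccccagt
Rrn3: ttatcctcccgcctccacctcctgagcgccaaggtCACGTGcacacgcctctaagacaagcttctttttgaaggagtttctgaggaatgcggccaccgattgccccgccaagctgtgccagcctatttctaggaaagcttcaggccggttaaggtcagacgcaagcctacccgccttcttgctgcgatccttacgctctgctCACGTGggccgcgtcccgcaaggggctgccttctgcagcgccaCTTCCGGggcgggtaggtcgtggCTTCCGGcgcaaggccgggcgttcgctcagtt
Pes1: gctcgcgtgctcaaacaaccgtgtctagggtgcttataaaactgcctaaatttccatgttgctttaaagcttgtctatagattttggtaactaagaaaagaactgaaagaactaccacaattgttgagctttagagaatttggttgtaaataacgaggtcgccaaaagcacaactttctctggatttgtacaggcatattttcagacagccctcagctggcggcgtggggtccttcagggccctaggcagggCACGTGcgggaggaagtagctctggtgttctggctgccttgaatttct

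Searched on both strands, CACGTG stood in a window of 7 of the 42 members (16.7%: Ltv1, Nop2, Pes1, Rrn3, Utp20, Utp4 and Wdr43). It stood in a window of 11.3% of 11126 tested protein-coding genes and in 7.15% of all 32851 single windows. A gene can have more than 1 window, so shares of genes and shares of all windows are not in the same unit. Counted from the start, it began at base -60 in Nop2, at -215 and -48 in Rrn3 and at 3 in Pes1. CCGGAAG or CTTCCGG stood in 14 of 42 (33.3%), against 18.3% of tested genes and 8.86% of all windows. TATAAA stood in 2 of 42 (4.76%, Dkc1 and Pes1), against 9.51% of tested genes and 13.6% of all windows. The median GC content was 59.5% for members and 60.3% for tested protein-coding genes. Of the printed windows Polr1c holds the ETS letters without the E-box, Pes1 the E-box without the ETS letters, and Nop2 and Rrn3 hold both. No window of Ddx18 or Wdr75, which were not printed, holds the E-box or the ETS letters. These letters were chosen with the expression values known, were not tested, and say nothing of whether a factor was bound.

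A minority of members had small nucleolar RNA genes inside the gene. This held for 7 of 48 members (14.6%), against 238 of 14189 tested protein-coding genes (1.68%). Taf1d holds 8 of them, Nop56 5, Nop58 4, Wdr43, Gnl3 and Ncl 3 each and Dkc1 1. The 7 hosts had a median log2 fold change of 1.58 for Apc against WT and the other 41 members 1.38. For Apc Eif3h against Apc the medians were 0.4 and 0.34.

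Between Apc Eif3h and Apc few members passed the test. For Apc Eif3h against Apc, 3 of 48 members were called higher and 0 lower, where 4.27% of tested genes were called higher and 2.78% lower. The 3 were Polr1c (GENCODE M21 on GRCm38, chr17:46243920-46248054, minus strand), Rrp12 (chr19:41862851-41896173, minus strand) and Nop2 (chr6:125131909-125144753, plus strand). EdgeR's unadjusted p was below 0.05 for 23 members, against 12.6% of tested genes that were higher at that level. The log2 fold change was above 0 for 46 members, against 49.8% of tested genes, with a median of 0.35 (1.27-fold), quartiles of 0.23 and 0.42, and a median of -0.002 over all tested genes. Most members thus lay slightly above their Apc level without passing the test, and the libraries of the groups overlapped for 47 of 48.

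Polr1c, shared by RNA polymerases I and III, was at 84.4, 71, 57.5 and 67.9 CPM in Apc Eif3h libraries, 51.3, 48.7, 43.5 and 52.5 CPM in Apc libraries and 33.9, 28.6, 28.1 and 28.5 CPM in WT libraries. It was the 1 member whose Apc Eif3h and Apc libraries did not overlap, a separation found for 7.89% of tested genes. The log2 fold change for Apc Eif3h against Apc was 0.52 (SE 0.11, edgeR adjusted p = 0.0189). For Rrp12, which in yeast acts in the export of both subunits, the values were 46.4, 44.4, 27.5 and 46.1 CPM in Apc Eif3h, 29.1, 22.7, 23.2 and 28.4 CPM in Apc and 10.1, 10.8, 12.1 and 9.23 CPM in WT libraries. Apart from replicate 3, every Apc Eif3h library was above every Apc library. Its log2 fold change was 0.67 (SE 0.16, edgeR adjusted p = 0.0271). Nop2, which methylates a cytosine of large subunit rRNA, was at 123, 105, 74.1 and 105 CPM in Apc Eif3h, 75.8, 57.9, 62.4 and 77.5 CPM in Apc and 28.2, 25.7, 26 and 24.3 CPM in WT libraries, again with replicate 3 alone among the Apc values. Its log2 fold change was 0.57 (SE 0.14, edgeR adjusted p = 0.0303).

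Wdr12 had the highest log2 fold change of the set for Apc Eif3h against Apc, 0.69, with an SE of 0.2 and an adjusted p of 0.0625 in edgeR. Npm1 (0.56, edgeR adjusted p = 0.0575), Ubtf (0.23, 0.0752), Nob1 (0.45, 0.0801) and Rrp9 (0.43, 0.0914) were the next by adjusted p and also missed the threshold. At the other end Rrn3 had -0.06 and Ddx18 -0.02, with Wdr75 at 0.04 and Pes1 at 0.05, all with edgeR adjusted p-values of 0.704 to 0.943. Rrn3 was at 54.7, 51.8, 48.7 and 60.6 CPM in Apc Eif3h, 61.5, 53.2, 55.9 and 55.1 CPM in Apc and 31.2, 32.2, 27.4 and 28.4 CPM in WT libraries. The Apc Eif3h and Apc ranges of Rrn3 overlapped. By role the medians for Apc Eif3h against Apc were 0.52 for the scaffold proteins, 0.42 for box C/D, 0.35 for small subunit processing, 0.34 for large subunit assembly, 0.29 for box H/ACA and for the helicases, and 0.24 for RNA polymerase I.

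**Figure D3:**
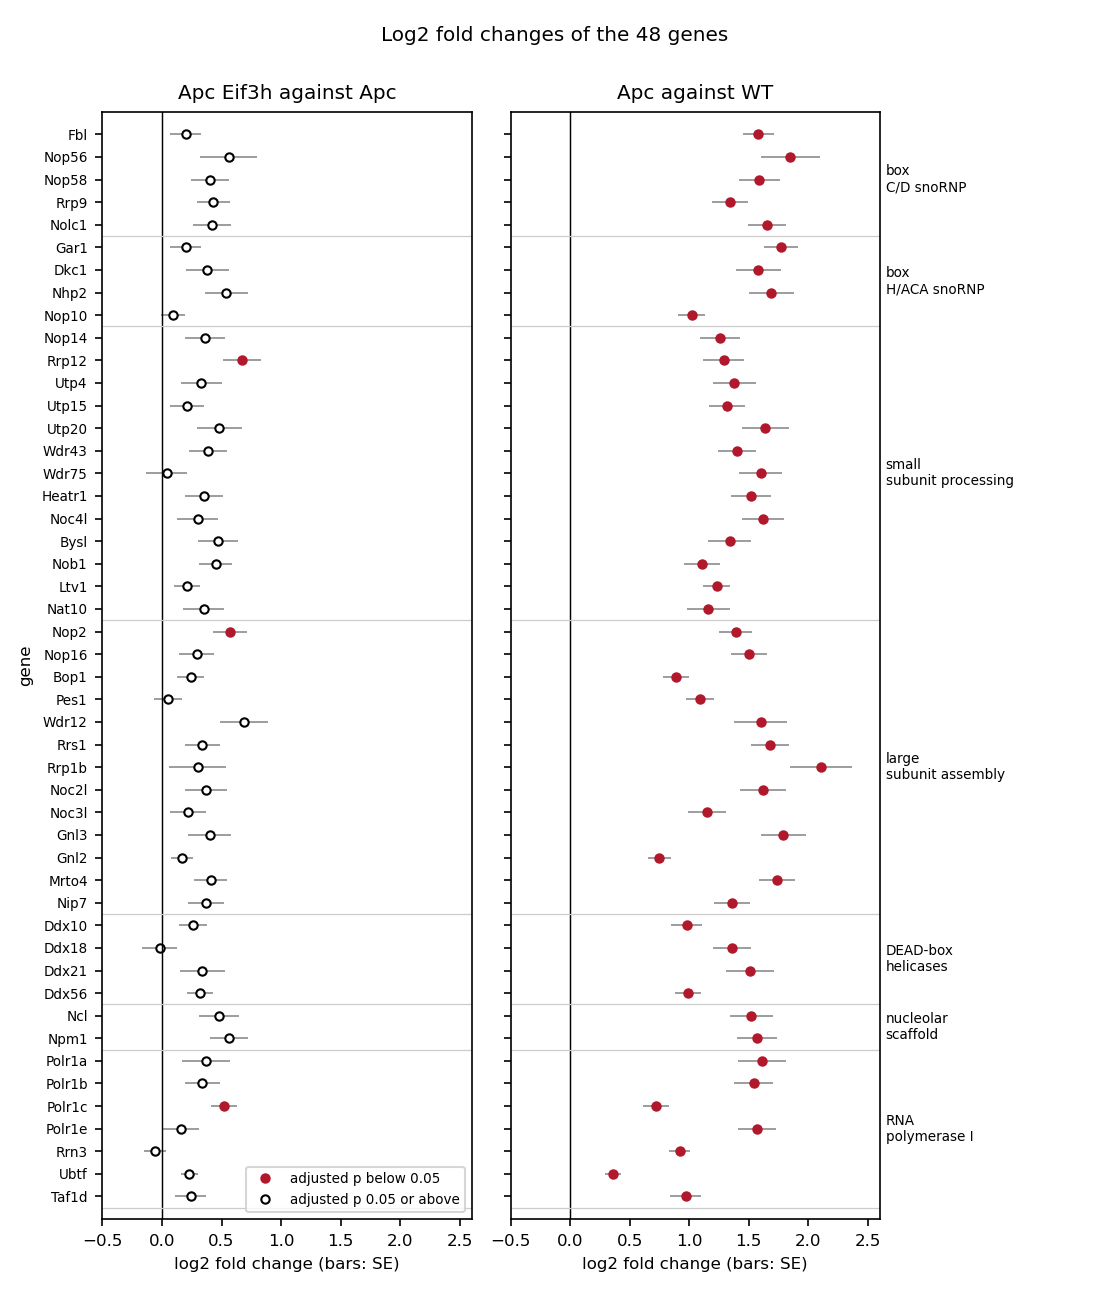
Log2 fold changes of the 48 genes with SE bars, for Apc Eif3h against Apc (left) and Apc against WT (right). Filled points have an edgeR adjusted p below 0.05: Rrp12, Nop2 and Polr1c on the left and all 48 genes on the right.

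The count for Apc Eif3h against Apc depended on single libraries. Apc Eif3h replicate 3 was the lowest library of its group for 48 of 48 members, and replicate 1 the highest for 46. Without replicate 3, 26 of 48 members were called higher (54.2%) where 6.51% of tested genes were. These were 4 of 5 box C/D members, 1 of 4 box H/ACA, 6 of 13 small subunit, 7 of 13 large subunit, 2 of 4 helicases, both scaffold proteins and 4 of 7 RNA polymerase I genes. Since replicate 3 was lowest for every member, leaving it out had to raise each Apc Eif3h mean. The 26 calls are therefore not separate support for a difference. The count was 1 without Apc Eif3h replicate 1, 2 or 4 or without Apc replicate 2, where 2.35% to 2.61% of tested genes were called higher. It was 3 without Apc replicate 1 or 4 or any WT library, where 2.56% to 4.09% were. Without Apc replicate 3 0 of 48 passed in edgeR (1.37% of tested genes), with 12 at an unadjusted p below 0.05. Leaving out 1 library in turn, the call was lost in 5 of 12 fits for Rrp12, 5 of 12 for Nop2 and 1 of 12 for Polr1c. Among males only edgeR's count was also 0 (2.24% of tested genes), with 33 at an unadjusted p below 0.05 and with Polr1c at an edgeR adjusted p of 0.0509, Rrp12 at 0.0503 and Nop2 at 0.0597. DESeq2 called 7 of 48, where it called 6.19% of tested genes higher. They were the 3 above with Npm1 (DESeq2 adjusted p = 0.0175), Wdr12 (0.0199), Ubtf (0.0355) and Nob1 (0.0483).

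Several other measures moved with this library. Apc Eif3h replicate 3 had the most Eif3h left in its group (54.6 CPM against 25.9 to 43.1 in the other 3), the highest enterocyte marker sum (28200 against 17000 to 21500 CPM), the lowest Myc (63.4 against 91.6 to 117 CPM) and the lowest sum of 15 cell cycle genes (1250 against 1400 to 1840 CPM). Its members held 0.379% of counts, against 0.572% to 0.68% in the other 3. Among Apc libraries replicate 2, lowest for 34 of 48 members, likewise had the highest enterocyte sum, 24000 against 15100 to 17800 CPM, and the lowest Myc, 68.6 against 98.8 to 107 CPM. Of the WT libraries, replicate 1 was highest for 30 members. It had the lowest enterocyte sum of its group, 33100 against 35500 to 45700 CPM. WT replicate 4, lowest for 28 members, had 44000 CPM, below the 45700 CPM of WT replicate 3. Apc Eif3h replicate 1, highest for 46 members, had 21500 CPM, above the 17000 and 18900 CPM of replicates 2 and 4. Apc replicate 1, highest for 37 members, had the lowest enterocyte sum of its group, 15100 CPM. Whether tissue makeup, recombination or proliferation played a part in the members' levels was not tested.

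**Figure D4:**
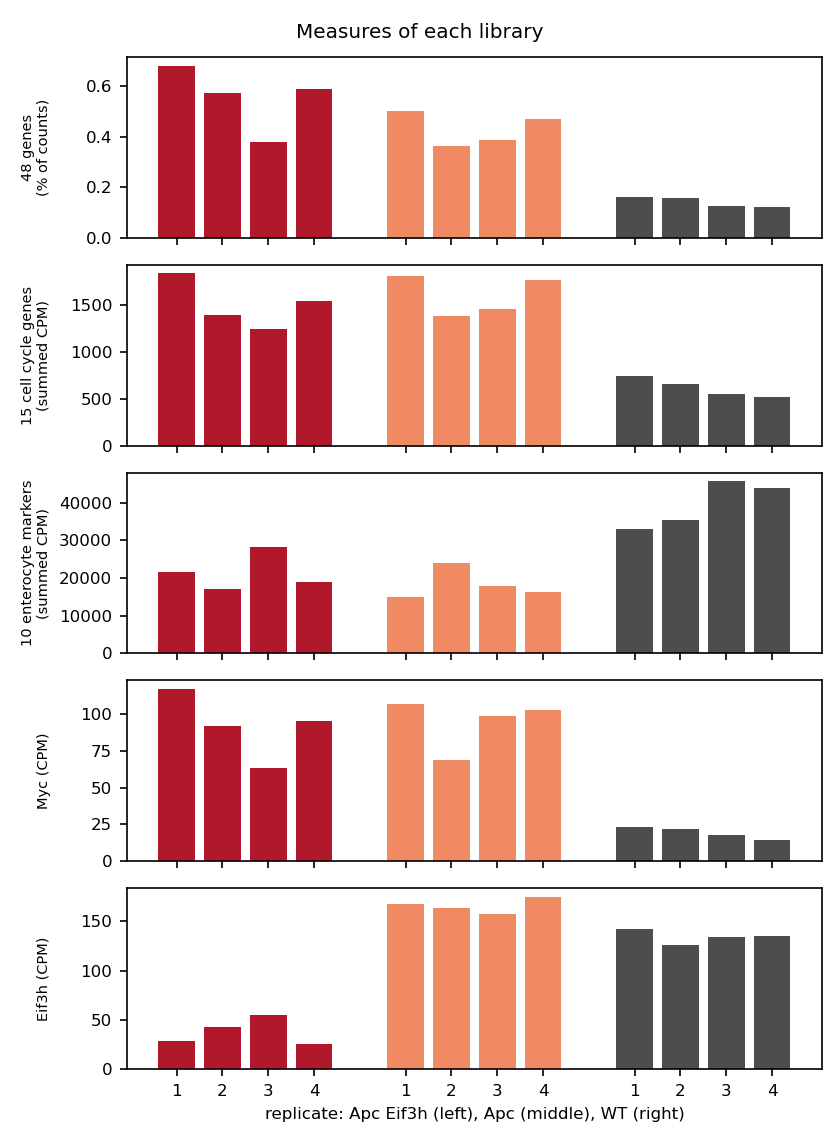
Bars give, for each library of Apc Eif3h (left), Apc (middle) and WT (right), the share of counts in the 48 genes, the summed CPM of 15 cell cycle genes and of 10 enterocyte markers, and the CPM of Myc and Eif3h. Apc Eif3h replicate 3 is the lowest of its group in the share, in cell cycle genes and in Myc, and the highest in enterocyte markers and Eif3h.

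The rest of the pathway was read from lists of related genes. For Apc against WT, 27.7% of all tested genes were called higher and 24.1% lower. Beyond the 48, 32 of 36 further small subunit processing genes were called higher for Apc against WT and 0 lower, with a median log2 fold change of 0.8. Pno1 (1.18, edgeR adjusted p = 1.11e-05) and Utp18 (1.25, edgeR adjusted p = 1.24e-05) had the smallest p-values there. Of 44 further large subunit assembly genes 39 were called higher and 0 lower, with a median of 0.94. Rrp15 (1.84, edgeR adjusted p = 6.97e-06) and Lsg1, a GTPase of the last cytoplasmic steps (1.01, edgeR adjusted p = 1.07e-05), had the smallest p-values of that list. Of the snoRNP assembly genes 10 of 11 were called higher, with a median of 1.09, among them Naf1 (1.79), which loads the box H/ACA particle, and the helicase Ruvbl1 (1.73). The RNA exosome and its partners, which trim and degrade rRNA precursors, had 11 of 14 tested genes called higher and 0 lower, with a median of 0.68, and the 15th listed gene, Exosc6, had 0 counts in all libraries.

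Polymerase genes changed by smaller ratios. For Apc against WT, where 27.7% of all tested genes were called higher, so were 7 of 9 further RNA polymerase I genes (median 0.38). The call was also higher for 4 of 5 subunits shared between polymerases (median 0.51), 17 of 22 RNA polymerase III genes (median 0.36) and 5 of 7 RNA polymerase II subunits (median 0.34). Cd3eap, a subunit that binds RNA polymerase I, had the largest change of the further polymerase I genes at 1.14 (SE 0.15, edgeR adjusted p = 9.91e-05), followed in p by the subunit Twistnb (0.71). Maf1, the repressor of RNA polymerase III, was called lower at -0.5 (SE 0.1, edgeR adjusted p = 0.00169). Polr3gl, the alternative form of a polymerase III subunit, was also called lower at -0.35 (edgeR adjusted p = 0.0316), a call lost in 6 of 12 fits that left out 1 library.

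In Apc Eif3h against Apc, 4.27% of all tested genes were called higher and 2.78% lower. Of the 44 further large subunit genes 4 were called higher and 0 lower (median 0.21). Of the 36 further small subunit genes 0 were called in either direction (median 0.19). For 8 of these 36 edgeR's unadjusted p was below 0.05, and DESeq2 called 2. Eif6, which keeps the subunits apart until the large one is mature, had 0.79 (SE 0.14, edgeR adjusted p = 0.00771), Nsa2, a nuclear assembly factor, 0.46 (SE 0.08, edgeR adjusted p = 0.00767), the export adaptor Nmd3 0.37 (SE 0.08, edgeR adjusted p = 0.0186) and Zfp622 0.41 (SE 0.09, edgeR adjusted p = 0.0224). Eif6 and Zfp622 had not been called for Apc against WT (-0.28 and -0.19, edgeR adjusted p = 0.104 and 0.101). Eif6 was called lower in that comparison without WT replicate 1 (-0.37, edgeR adjusted p = 0.0383) or WT replicate 2 (-0.37, 0.0428), and Zfp622 without WT replicate 2 (-0.26, 0.0338). The calls of Nmd3 and Zfp622 were lost in 2 and 4 of the 12 fits that left out 1 library, and those of Eif6 and Nsa2 in 0. RNA polymerase III genes had 2 of 22 called higher (Crcp and Polr3c), polymerase II subunits 2 of 7 (Polr2g and Polr2i), and the further polymerase I, shared subunit, snoRNP assembly and exosome lists had 0. In those 4 lists edgeR's unadjusted p was below 0.05 for 1, 0, 3 and 1 genes, and DESeq2 called 1, 0, 0 and 1. The 4 polymerase calls were lost in 6 (Crcp), 9 (Polr3c), 5 (Polr2g) and 7 (Polr2i) of the 12 fits that left out 1 library.

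**Figure D5:**
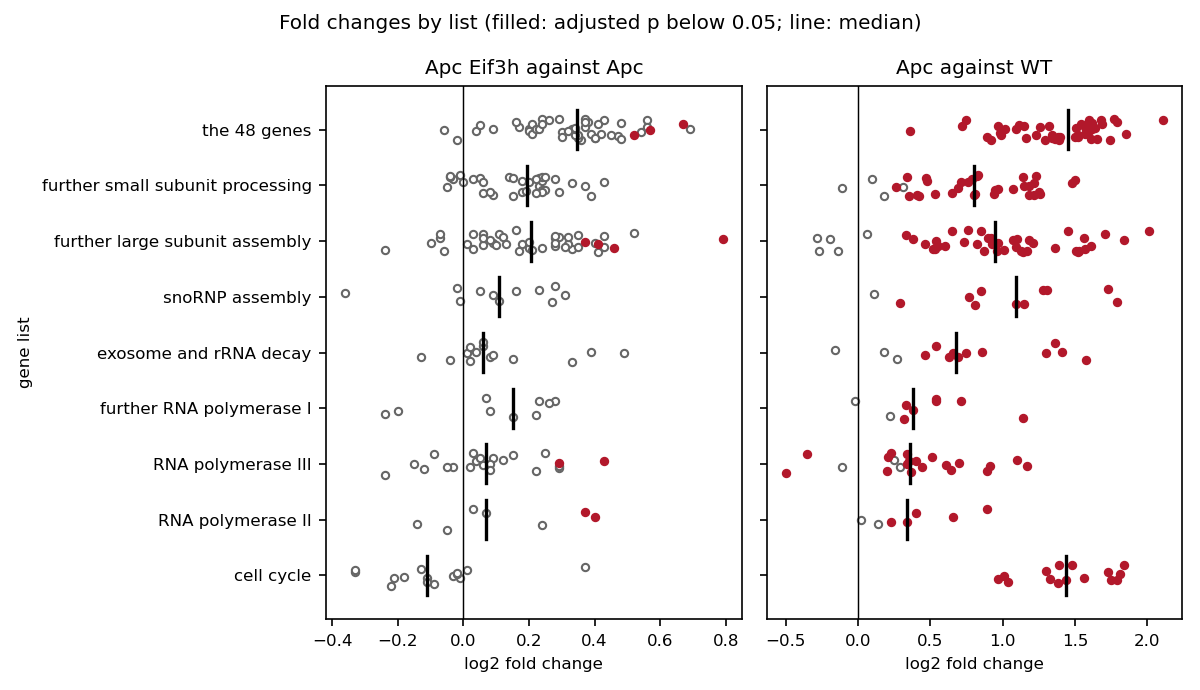
Log2 fold changes of the genes of each list for Apc Eif3h against Apc (left) and Apc against WT (right). Points are genes, filled where the edgeR adjusted p was below 0.05, and vertical lines are list medians, which for the 48 genes are 0.35 on the left and 1.45 on the right.

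Cell cycle genes and Myc were set beside the members, since both are tied to growth of the crypt. For Apc against WT all 15 cell cycle genes were called higher, against 27.7% of all tested genes. Their median was 1.44, close to that of the 48 genes, and Myc had 2.27 (SE 0.21, edgeR adjusted p = 1.11e-05). For Apc Eif3h against Apc edgeR and DESeq2 called 0 of the 15 cell cycle genes, with 1 at an unadjusted p below 0.05 in edgeR. Over all tested genes edgeR called 4.27% higher and 2.78% lower there, so a count of 0 among 15 is near the background. The median of the 15 cell cycle genes was -0.11 and 13 lay below 0. Myc had -0.04 (edgeR adjusted p = 0.933), with 117, 91.6, 63.4 and 95.1 CPM in Apc Eif3h and 107, 68.6, 98.8 and 103 CPM in Apc libraries, whose ranges overlapped. In WT libraries it was at 14.5 to 23.3 CPM. Of the other genes on the list of MYC and p53 nodes, Trp53 was called higher for Apc against WT (1.01), while Max (-0.77), Cdkn1a (-0.58) and Mnt (-0.25) were called lower, Mnt losing its call in 4 of 12 fits that left out 1 library. For Apc Eif3h against Apc that list had Cdkn1a, a cell cycle inhibitor, called higher (0.45, edgeR adjusted p = 0.0482) and Mycn called lower (-0.86, edgeR adjusted p = 0.039), and each call was lost in 8 of 12 fits that left out 1 library. Mycn was at a low level throughout, with means of 1.4 CPM in Apc Eif3h, 2.5 CPM in Apc and 3.13 CPM in WT libraries. The medians of the 48 genes and of the cell cycle genes thus had different signs for Apc Eif3h against Apc, a difference that was not tested.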

How the data were processed

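Per the labels' protocols, small intestine RNA (12 samples) was purified with an RNeasy Micro kit and made into TruSeq RNA libraries, which were sequenced from both ends for 36 cycles on an Illumina NextSeq. The authors deposited raw whole-number counts per gene and library. Tools listed in the submitters' processing notes are HISAT2 2.1.0, featureCounts 1.6.4, Trim Galore 0.6.4 and FastQC 0.11.8, with the build GRCm38. Their annotation, strandedness and handling of reads with several matches are not given in the sources used.

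Of 55421 gene identifiers 55240 matched GENCODE M21 (GRCm38), which gave symbols, positions and exon lengths. The other 181 held 0.00226% of counts, and 20439 genes were at 0 in all libraries. The test was edgeR 4.0.16 (R 4.3.3) in 1 fit of all 12 libraries (filterByExpr, TMM, glmQLFit without the legacy option, glmQLFTest). Benjamini-Hochberg adjustment ran over the 17394 genes tested, with calls at an adjusted p below 0.05. Each standard error was taken as the size of the log2 fold change over the root of its F statistic. CPM used the TMM-scaled counts of tested genes. Replicate libraries differed far beyond counting error (chi-square per gene of 17.7 to 51.8 over 18 pairs), so none was merged. The procedure was checked on simulated data.

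The 48 members and the lists were chosen with earlier results of these data known, and promoter letters were chosen after the data were seen. Members could all be named, with up to 5 tested changes per role by smallest p and those against the majority. Tests were also given for some members outside that rule, among them Nat10, Rrp1b and Gnl2, with their values known. Other genes named were Eif3h, Apc and Myc, the 2 called genes of each list with the smallest p, those called against their list, and the members of small counts, which were picked after their values were seen. Further lists covered polymerases, processing, assembly, snoRNP assembly, exosome, MYC and p53 nodes, cell cycle and markers of enterocytes, crypt, goblet, Paneth, tuft, enteroendocrine, B and plasma, T and cytotoxic, macrophage and neutrophil, smooth muscle, fibroblast, endothelial, neural and glial, and pancreatic acinar cells. Alternatives were library totals only, RLE factors, no filter, a replicate block, each contrast's 2 groups alone, males only, DESeq2 1.42.0 and leaving out each library.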

Additional observations from a re-analysis of the deposited data

Results flagged for a closer look

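In 4 of 144 sets of 4 libraries (48 genes in 3 groups), 1 library stood far from the other 3 of its group. The rule was Dixon's ratio of gap to range at its 95% critical value. Chance alone marks about 1 in 20 such sets, a larger share than the 4 of 144 found. Rrp12 was at 27.5 CPM in Apc Eif3h replicate 3, against 44.4 to 46.4 CPM in the other Apc Eif3h libraries, with a ratio of gap to range of 0.896. Nop16, a large subunit assembly factor, was at 38.7 CPM in the same library, against 54.5 to 57.4 CPM in the others (ratio 0.846). Fbl was at 46.1 CPM in Apc replicate 3, against 58.3 to 60.6 CPM in the other Apc libraries (ratio 0.842). Polr1c was at 33.9 CPM in WT replicate 1, against 28.1 to 28.6 CPM in the other WT libraries (ratio 0.912). Of these, 2 fell in Apc Eif3h replicate 3, the library that was lowest of its group for all 48 genes.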

How the results depend on the processing

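For Apc against WT and for Apc Eif3h against WT, all 48 members kept their call and direction in the 912 gene-level refits of each comparison, and the member median ranged from 1.32 to 1.68 and from 1.71 to 1.99. For Apc Eif3h against Apc the median ranged from 0.25 to 0.49, and 853 of 912 refits kept the direction and the call or its absence (18 lost a call, 30 gained one and 11 changed sign). Members called higher, with the share of all tested genes called higher in the same fit, were 3 as reported (4.27%), 1 with library totals only (2.79%), 1 with the 2 groups alone (3.39%), 0 in males only (2.24%), 6 with the replicate block (3.41%), 7 with DESeq2 (6.19%) and 0 to 26 when 1 library was left out (1.37% and 6.51%). Genes called were 1226, 817 without the filter, 659 in males only and 406 to 1767 with 1 library left out. The cause was not tested. Replicate numbers are not said to pair the samples. Deviations from the group means correlated at -0.142 to 0.236 between same-numbered libraries, which cannot settle whether those libraries were handled together. Under the block the added members were Wdr12, Mrto4 and Npm1. With 1 library left out, the 3 calls gave 0.61 to 0.84 (Rrp12), 0.47 to 0.72 (Nop2) and 0.42 to 0.63 (Polr1c). Signs turned for Ddx18 in males only (0.05), and, with 1 library left out, for Wdr75 (-0.07 to 0.19), Pes1 (-0.02 to 0.15), Ddx18 (-0.1 to 0.12) and Rrn3 (-0.12 to 0.0). Myc turned to 0.03 in males only and ranged from -0.17 to 0.13 with 1 library left out. Library totals only turned Zfp622 (0.04) for Apc against WT. With that scaling the median of all genes was 0.22 for Apc against WT and 0.17 for Apc Eif3h against WT, against -0.01 and -0.03 with TMM, and it moved the calls for Apc against WT to 6817 higher and 2393 lower, against 4820 and 4192 with TMM. Shared stretches between genes and short reads limit the levels of the 9 members with near-identical copies.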
